A study of Mus musculus with 10 samples.

Results

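The genes described here are Cdkn1a and other direct targets of the transcription factor p53, measured in mouse liver. 10 genes were asked for by symbol: Cdkn1a, Ccng1, Eda2r, Mdm2, Btg2, Phlda3, Bax, Gadd45a, Gadd45b and Sesn1. 8 of them were measured by a transcript cluster listed under that symbol alone, out of 22180 such genes in the whole table, and each of the 8 had 1 such cluster. Bax had no cluster under its symbol and is not analysed here. Gadd45a was listed only in a cluster shared with other symbols and is not used here. The gene of p53 itself is not analysed here either.

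Liver RNA came from fasted male mice and was hybridised to 10 whole-transcript arrays. Each mouse had received, about 2 weeks before, an adeno-associated virus (AAV) whose TBG promoter, active in hepatocytes, drove either GFP or Fst288, which encodes the follistatin isoform FST288. Follistatin is a secreted protein that binds and neutralises activins and related ligands of the TGF-beta family. The first background was wild-type mice kept on a high-fat diet (HFD), with 3 livers given GFP and 3 given FST288. The other was labelled LTKO, with 2 livers given GFP and 2 given FST288. The labels do not spell out LTKO, and they give its diet nowhere. From general knowledge, the name stands for a triple knockout of Irs1, Irs2 and Foxo1 in the liver, which removes both insulin receptor substrates and a main FoxO factor. The diet and the genotype of the LTKO livers therefore cannot be told apart in the comparisons with HFD livers. Ages are not given, and no label states outright that the livers of a group are from different mice. The p-values therefore reflect spread among the livers as sampled, which may be partly technical.

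p53 is a stress-activated transcription factor that is kept low by Mdm2, a ubiquitin ligase and itself a p53 target. Its targets stop the cell cycle, slow growth signalling, repair damage or promote cell death. Several of them are also switched by other factors: Cdkn1a by FoxO factors, SMADs and the glucocorticoid receptor, and Gadd45b and Btg2 by immediate early and inflammatory signals. In the liver Cdkn1a, which encodes the cyclin-dependent kinase inhibitor p21, is known as a fasting-responsive gene and a brake on hepatocyte division.

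The promoters of 5 of these genes are shown because the later results turn on them: Cdkn1a and Eda2r were higher with FST288 in HFD livers, Ccng1 had no overlap between its groups there without being called, Mdm2 did not pass the test in any comparison, and Cdkn1a and Gadd45b were higher in LTKO livers. Each line gives the 250 bases before the RefSeq start of the gene, 5′ to 3′ on the strand of the gene (GRCm38.p6). The windows are chr17:29090729-29090978 (+ strand) for the upstream of 2 annotated starts of Cdkn1a, chr11:40755287-40755536 (- strand) for Ccng1, chrX:97377210-97377459 (- strand) for Eda2r, chr10:117710759-117711008 (- strand) for Mdm2 and chr10:80929841-80930090 (+ strand) for Gadd45b. Capitals mark matches to the p53 half-site, a decamer pattern that is its own reverse complement, and to the FoxO motif GTAAACA, searched on both strands.
Cdkn1a: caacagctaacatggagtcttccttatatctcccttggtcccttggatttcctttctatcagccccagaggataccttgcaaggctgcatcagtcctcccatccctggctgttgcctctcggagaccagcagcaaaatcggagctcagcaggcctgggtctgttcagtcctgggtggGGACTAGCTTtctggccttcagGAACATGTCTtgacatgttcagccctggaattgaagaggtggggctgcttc
Ccng1: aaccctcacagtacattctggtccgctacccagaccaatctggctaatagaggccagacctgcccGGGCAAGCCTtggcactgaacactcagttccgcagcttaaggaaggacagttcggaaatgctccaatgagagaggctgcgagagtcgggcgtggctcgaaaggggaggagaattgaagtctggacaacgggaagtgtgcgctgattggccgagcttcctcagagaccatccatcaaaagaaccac
Eda2r: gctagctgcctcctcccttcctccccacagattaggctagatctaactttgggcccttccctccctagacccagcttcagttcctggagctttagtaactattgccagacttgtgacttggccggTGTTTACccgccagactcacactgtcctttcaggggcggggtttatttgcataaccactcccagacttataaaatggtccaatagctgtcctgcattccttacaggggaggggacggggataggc
Mdm2: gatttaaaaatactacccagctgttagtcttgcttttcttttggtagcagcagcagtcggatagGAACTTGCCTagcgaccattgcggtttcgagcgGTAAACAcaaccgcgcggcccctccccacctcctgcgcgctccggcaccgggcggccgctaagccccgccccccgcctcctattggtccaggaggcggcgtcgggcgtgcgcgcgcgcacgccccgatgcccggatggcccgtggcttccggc
Gadd45b: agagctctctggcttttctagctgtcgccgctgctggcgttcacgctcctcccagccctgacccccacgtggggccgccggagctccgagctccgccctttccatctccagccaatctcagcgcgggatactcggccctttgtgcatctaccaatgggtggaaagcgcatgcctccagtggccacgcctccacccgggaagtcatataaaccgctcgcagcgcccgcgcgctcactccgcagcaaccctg

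The Cdkn1a window held 2 half-site matches, GGACTAGCTT at 73 to 64 bases and GAACATGTCT at 51 to 42 bases before the start. The other Cdkn1a start, 2790 bases downstream, had no match in its window. Ccng1 held GGGCAAGCCT at 185 to 176 bases, and Mdm2 held GAACTTGCCT at 186 to 177 bases, followed by the FoxO motif at 153 to 147 bases. Eda2r held no half-site match in this window but the FoxO motif, as TGTTTAC on the strand shown, at 125 to 119 bases. Gadd45b, Btg2 and Phlda3 held neither. Over 12 windows of the 10 genes, 6 windows of 6 genes held a half-site, against 7.13% of 32851 mouse promoter windows of the same length and 13.6% of 81 windows of other p53 targets. The FoxO motif was in 2 of the 12 windows and in 3.17% of all windows. No match of one motif overlapped a match of the other. These are matches of letters, and they say nothing of binding in these livers.

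The genes that mark the groups were checked first. Fst was higher with the FST288 virus in both backgrounds, from 5.27 ± 0.06 (SD, n = 3) to 6.35 ± 0.52 (SD, n = 3) on the log2 scale in HFD livers and from 5.35 ± 0.06 (SD, n = 2) to 6.79 ± 0.08 (SD, n = 2) in LTKO livers (limma, adjusted p = 0.015 and 0.0307). With GFP, Irs1 was 3.40-fold, Irs2 2.31-fold and Foxo1 3.21-fold lower in LTKO than in HFD livers (limma, adjusted p = 5.21e-06, 0.00409 and 1.49e-06). Markers of hepatocytes were high on all arrays, with a median of 11.88 to 12.23. Markers of pancreatic acinar cells, which liver should lack (11 of 15 listed were measured), stood at a median of 8.57 and 7.35 on HFD FST288 replicates 2 and 3, against 2.52 on replicate 1 and 2.30 to 2.81 on the other 7 arrays. Markers of Kupffer cells and macrophages had a median of 7.36 on LTKO FST288 replicate 2 and of 5.59 to 6.08 elsewhere. Both patterns are given again beside the results they touch. All values below are log2 values from robust multi-array averaging (RMA), differences are differences of log2 values, and a gene is called where the p-value of limma, adjusted over all 22180 genes by Benjamini-Hochberg, is under 0.05. Since tissue was measured in bulk, fewer cells of a type and less RNA per cell cannot be told apart.

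In wild-type livers on a high-fat diet, FST288 went with higher Cdkn1a, which halts the cell cycle by binding cyclin-dependent kinases, and with higher Eda2r, a TNF receptor family member that binds ectodysplasin. These were the 2 of 8 measured p53 targets that passed the test, both higher and none lower, against a background of 0.996% of all genes called (221 of 22180). The median change of the 8 genes was 0.49, and that of all genes was 0.00. 6 of the 8 changes were above 0. The genes were chosen with earlier results of these data known, so these shares describe the set and do not test it.

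Cdkn1a stood at 4.09, 5.09 and 4.35 on the HFD GFP arrays and at 5.79, 5.79 and 5.78 on the HFD FST288 arrays. The groups did not overlap, and the 3 FST288 livers were nearly alike while the GFP livers spread over a whole log2 unit, with replicate 2 highest. The difference was 1.27 ± 0.26 (SE), or 2.42-fold (95% interval of the log2 difference 0.72 to 1.83, limma, adjusted p = 0.031). FST288 replicate 1, the array with low acinar markers, had the same Cdkn1a value as replicate 2, and the difference was 1.28 with the acinar median as a covariate (adjusted p = 0.378). Without the 2 arrays with high acinar markers the FST288 group is that 1 liver, 1.28 above the GFP mean (adjusted p = 0.651). That p takes the spread from the other groups and assumes that a lone liver varies as they do, as do all fits below that leave 1 liver in a group. The call also ended when any 1 of 5 HFD arrays was left out: GFP replicate 1 (1.06, adjusted p = 0.145) or 3 (1.19, adjusted p = 0.127), or FST288 replicate 1 (1.27, adjusted p = 0.0774), 2 (1.27, adjusted p = 0.126) or 3 (1.28, adjusted p = 0.13).

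Eda2r stood at 1.85, 2.27 and 2.42 with GFP and at 3.04, 2.94 and 3.13 with FST288, so that every FST288 liver was above every GFP liver. The difference was 0.85 ± 0.18 (SE; 95% interval 0.46 to 1.24, limma, adjusted p = 0.0418). Eda2r was dim on these arrays, near or below the array medians of named genes (3.10 to 3.17), where array signals approach background, so its 1.81-fold difference is not an exact ratio of transcripts. Its call is close to the threshold: it held in 2 of 10 fits that left out 1 array and was lost without each of the 6 HFD arrays (adjusted p = 0.0567 to 0.186) and without LTKO GFP replicate 1 (0.054) or 2 (0.0538). With the acinar covariate the difference was 0.86 (adjusted p = 0.405), and without the 2 arrays with high acinar markers, which leaves 1 FST288 liver, it was 0.85 (adjusted p = 0.657, with the spread from the other groups).

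Ccng1 encodes cyclin G1, a partner of protein phosphatase 2A that feeds back on Mdm2. It stood at 7.98, 8.64 and 7.85 with GFP and at 8.89, 8.96 and 8.97 with FST288. As for Cdkn1a, the FST288 livers were nearly alike and lay above all GFP livers, of which replicate 2 was highest. The difference of 0.78 ± 0.22 (SE; 95% interval 0.32 to 1.25) did not pass the test (limma, adjusted p = 0.128). It passed without HFD GFP replicate 2 (1.02, adjusted p = 0.0486), without LTKO FST288 replicate 1 (0.78, adjusted p = 0.0208) or replicate 2 (0.78, adjusted p = 0.0206), and with the HFD arrays alone (0.78, adjusted p = 0.0221). The LTKO FST288 arrays enter this comparison only through the shared estimate of spread. These were the only 4 of 22 alternative settings in which Ccng1 passed, and over the 22 its difference ran from 0.63 to 1.02. It did not pass with the acinar covariate. FST288 replicate 1, with low acinar markers, was at 8.89, just below the FST288 arrays with high ones.

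The other 5 genes did not pass the test in HFD livers. Gadd45b, a stress sensor, stood at 2.80, 3.57 and 3.03 with GFP and at 3.81, 3.88 and 3.55 with FST288. GFP replicate 2 lay just above the lowest FST288 liver, so the groups overlapped by that array, and the difference was 0.61 ± 0.17 (SE; limma, adjusted p = 0.137). Without GFP replicate 2 it was 0.83 and passed (adjusted p = 0.027), the only 1 of 22 alternative settings in which it did. Btg2, an antiproliferative cofactor of mRNA deadenylation, differed by 0.37 ± 0.18 (SE; adjusted p = 0.447). The feedback inhibitor Mdm2 differed by 0.10 (95% interval -0.28 to 0.48), Phlda3, which competes with AKT for membrane lipids, by -0.07 (-0.48 to 0.35), and Sesn1, an inhibitor of mTORC1, by -0.01 (-0.37 to 0.34). Over all 10 arrays Mdm2 stayed between 6.16 and 6.97 and Phlda3 between 3.46 and 4.26. These 3 intervals of the HFD differences leave out a rise as large as the 1.27 of Cdkn1a.

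**Figure D1:**
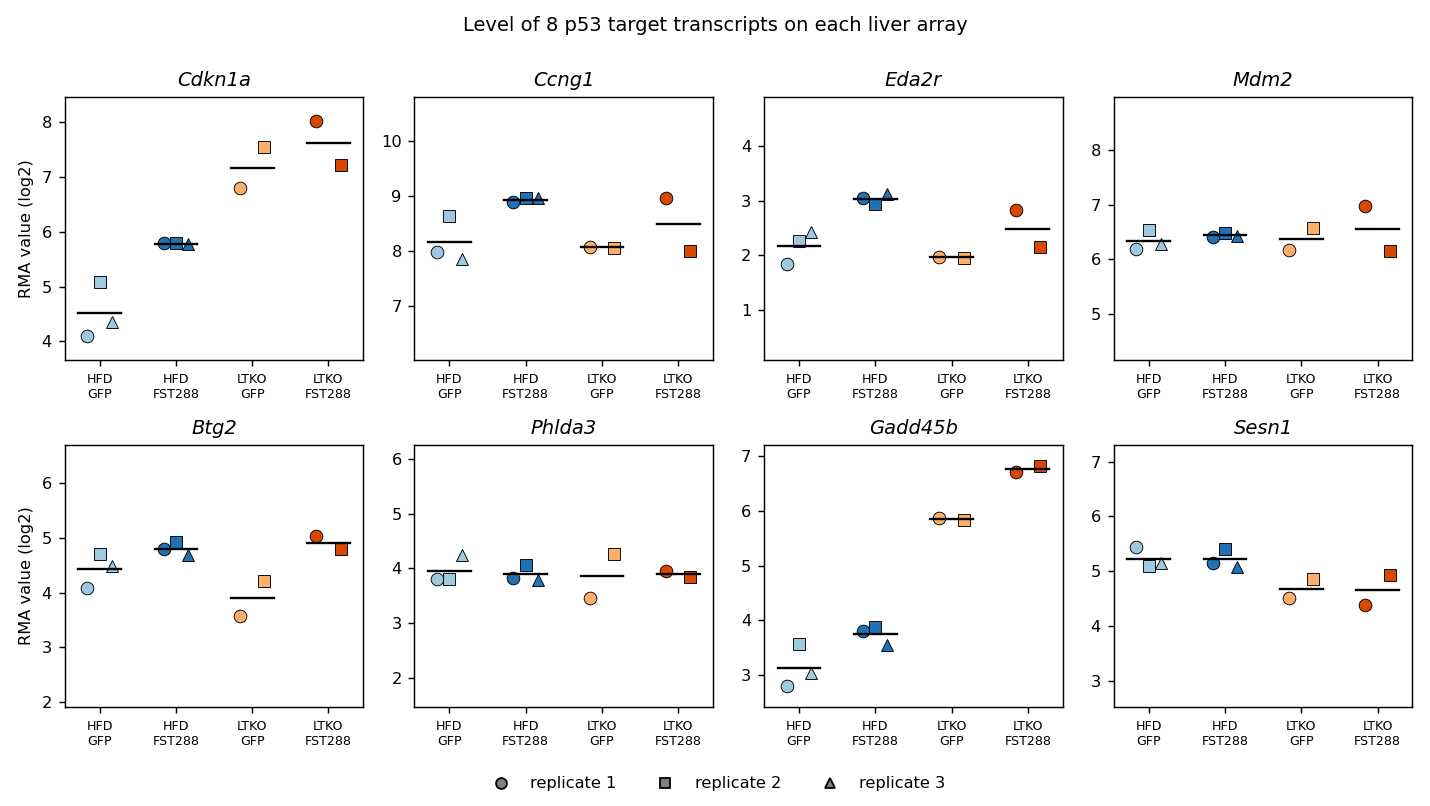
RMA values (log2) of the 8 measured p53 targets on each of the 10 arrays, with 1 panel per gene, symbols for the replicate, and a bar at each group mean. Cdkn1a steps up from HFD GFP (4.09 to 5.09) to HFD FST288 (5.78 to 5.79) and on to the LTKO groups (6.80 to 8.03), the 4 LTKO arrays of Gadd45b (5.83 to 6.82) lie above its 6 HFD arrays (2.80 to 3.88), and the groups of Mdm2 and of Phlda3 overlap.

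In LTKO livers none of the 8 genes passed the test of FST288 against GFP, and neither did most genes: 0.167% of all genes were called (37 of 22180). At an unadjusted p under 0.05 there were 3 of the 8 genes and 2213 of all genes. 7 of the 8 changes were above 0, with a median of 0.44 against -0.02 over all genes. With 2 livers a group, an exact permutation test of a single gene could not go below p = 0.333, so only the fit over all genes was used.

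Btg2 and Gadd45b came nearest to the threshold. Btg2 stood at 3.58 and 4.22 with GFP and at 5.03 and 4.80 with FST288, without overlap. The difference was 1.01 ± 0.22 (SE), or 2.02-fold (95% interval 0.53 to 1.5, limma, adjusted p = 0.138). Gadd45b stood at 5.87 and 5.83 with GFP and at 6.71 and 6.82 with FST288, also without overlap and with a small spread in both groups. Its difference was 0.92 ± 0.21 (SE), or 1.89-fold (95% interval 0.46 to 1.37, limma, adjusted p = 0.149). Over the fits that left out 1 array, some of which leave 1 liver in an LTKO group, the Btg2 difference ran from 0.69 to 1.33 and the Gadd45b difference from 0.86 to 0.97, and neither passed.

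Cdkn1a stood at 6.80 and 7.55 with GFP and at 8.03 and 7.22 with FST288 in LTKO livers. The groups overlapped, and the difference was 0.46 ± 0.31 (SE; 95% interval -0.22 to 1.14, limma, adjusted p = 0.693). With 1 LTKO FST288 liver in the group, it was 0.86 without replicate 2 and 0.05 without replicate 1. Eda2r differed by 0.52 (95% interval 0.04 to 1.00, adjusted p = 0.456), Ccng1 by 0.41 (-0.16 to 0.98, adjusted p = 0.666) and Mdm2 by 0.18 (-0.29 to 0.65, adjusted p = 0.849). Phlda3 and Sesn1 differed by 0.03 and -0.03. Leaving out 1 array moved these values widely, from 0.18 to 0.85 for Eda2r, from -0.07 to 0.90 for Ccng1, from -0.23 to 0.59 for Mdm2, from -0.37 to 0.43 for Phlda3 and from -0.31 to 0.25 for Sesn1, and none passed.

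The difference between the FST288 effects of the 2 backgrounds was tested as an interaction, and 0 of the 8 genes passed, against 0.216% of all genes called (48 of 22180). At an unadjusted p under 0.05 there were 1 of the 8 genes and 2795 of all genes. For Cdkn1a the effect in LTKO livers was lower than in HFD livers by a log2 difference of -0.81 ± 0.41 (SE; 95% interval -1.69 to 0.06, limma, adjusted p = 0.43). For Btg2 it was higher by 0.64 ± 0.29 (SE; 95% interval 0.02 to 1.27, adjusted p = 0.384). That Cdkn1a was called in HFD livers and not in LTKO livers is therefore not a shown difference between them.

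The 2 LTKO FST288 livers lay far apart in 4 of the 8 genes. Replicate 1 was above replicate 2 by 0.81 in Cdkn1a (8.03 against 7.22), by 0.97 in Ccng1 (8.97 against 8.0), by 0.82 in Mdm2 (6.97 against 6.16) and by 0.67 in Eda2r (2.82 against 2.15). The median size of this gap over all genes was 0.16, and gaps as large were seen in 1.83%, 1.14%, 1.8% and 3.21% of genes, respectively. The other 4 genes did not share this gap: it was 0.23 in Btg2 (35% of genes as large), 0.11 in Phlda3 (63.3%), -0.11 in Gadd45b (63.5%) and -0.56 in Sesn1 (5.41%). Of 64 other p53 targets, 41 (64.1%) were higher on replicate 1, against 49.4% of all genes, with a median gap of 0.09. The gaps named next were chosen after their values were seen. With replicate 1 higher, the largest were 1.18 in the transcriptional repressor Bcl6, 0.82 in Dglucy, 0.78 in the kinase Plk2 and 0.71 in the death receptor Tnfrsf10b. The largest of either sign was -1.43 in Tap1, with replicate 2 higher, followed on that side by Trp53inp1 (-0.59) and Fas (-0.55). Replicate 2 is the liver with the higher Kupffer cell and macrophage markers: all 10 of 10 markers were higher there, for example Marco at 7.59 against 5.48 and Clec4f at 7.84 against 7.05. The part of these cells in the gap was not tested, and since a pair of single livers is compared, the gap has no replicate check. The 2 LTKO GFP livers also lay apart, but in a different set of genes. Replicate 1 minus replicate 2 was -0.75 in Cdkn1a, -0.80 in Phlda3, -0.64 in Btg2, -0.40 in Mdm2 and -0.34 in Sesn1. It was 0.01 in Ccng1, 0.01 in Eda2r and 0.05 in Gadd45b, and its median size over all genes was 0.17.

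One liver also lay apart from the other HFD GFP livers. Replicate 2 lay above the mean of replicates 1 and 3 by 0.87 in Cdkn1a, a gap reached by 0.194% of genes, by 0.72 in Ccng1 (0.64%), by 0.66 in Gadd45b (1.04%) and by 0.42 in Btg2 (6.6%). The median size over all genes was 0.13. Mdm2 was higher by 0.30, while Eda2r (0.14), Phlda3 (-0.22) and Sesn1 (-0.19) were within the range of many genes. This array was the highest GFP liver in both Cdkn1a and Ccng1. Without it the HFD difference was 1.56 for Cdkn1a and 1.02 for Ccng1. It was also the lowest of the 3 GFP livers in all 10 Kupffer cell and macrophage markers, with a median of 5.59 against 6.08 and 5.96, for example Marco at 4.31 against 5.19 and 4.91. The part of these cells in the gap was not tested.

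Across all 10 arrays, the deviations of the genes from their own group means were set against each other, as a description with no test. The deviations of Cdkn1a had a Pearson r of 0.89 with those of Mdm2, 0.87 with Btg2, 0.81 with Ccng1, 0.61 with Eda2r, 0.53 with Gadd45b, 0.36 with Phlda3 and -0.40 with Sesn1. Ccng1 and Mdm2 had an r of 0.85, and Eda2r and Sesn1 an r of -0.85. The points share each liver's RNA and array, and in the LTKO groups of 2 the deviations are equal and opposite by construction. The spread within groups was wider for these genes than for most: the residual SD was 0.44 for Cdkn1a and 0.37 for Ccng1, it lay between 0.24 and 0.29 for the other 6, and its median over all genes was 0.16.

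**Figure D2:**
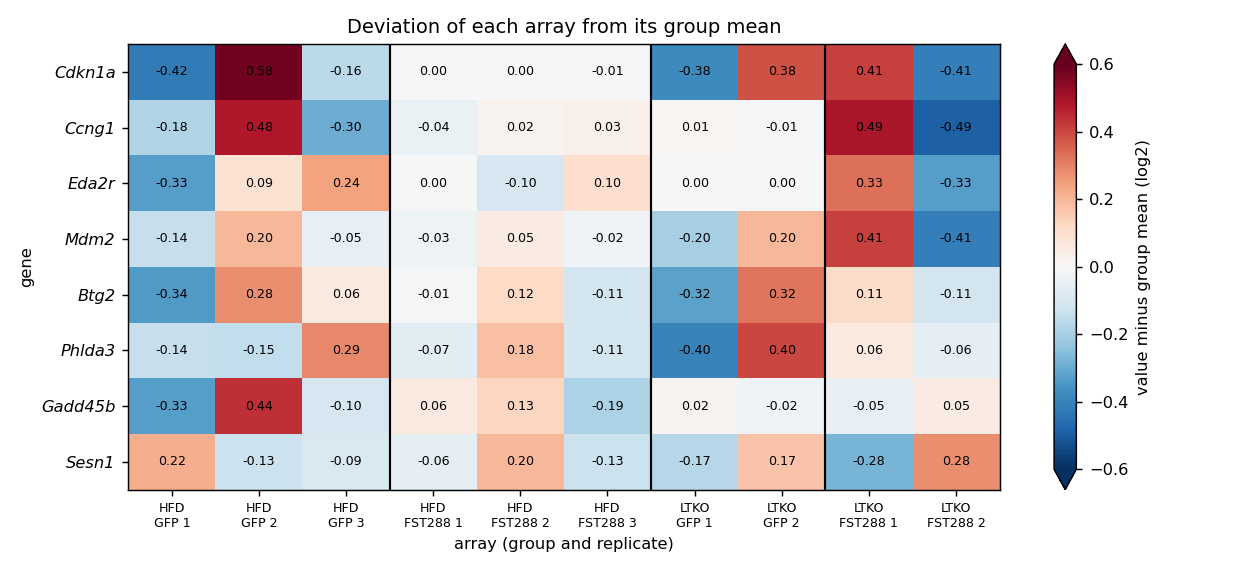
Deviation of each array from its group mean (log2, colour and printed number) for the 8 genes in rows and the 10 arrays in columns, with lines between the groups. HFD GFP replicate 2 is above its group mean by 0.58 in Cdkn1a and 0.48 in Ccng1, LTKO FST288 replicate 1 by 0.41 in Cdkn1a, 0.49 in Ccng1 and 0.41 in Mdm2, and the HFD FST288 arrays are within 0.05 of their mean in these 3 genes.

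Cdkn1a and Gadd45b were several-fold higher in LTKO than in HFD livers, with either virus. With GFP these 2 of the 8 genes were called, both higher, against 13.1% of all genes (2902 of 22180). With FST288 the same 2 genes were called, again both higher, against 10.3% of all genes (2293 of 22180). Where so many genes differ, 2 of 8 is not far from the background. The medians of the 8 changes were -0.09 with GFP and 0.06 with FST288. The GFP comparison shares its HFD livers, and the FST288 comparison its HFD livers, with the test of FST288 in HFD livers, so the values are given side by side only.

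With GFP, Cdkn1a was at 6.80 and 7.55 in LTKO livers and at 4.09 to 5.09 in HFD livers. The difference was 2.66 ± 0.29 (SE), or 6.31-fold (95% interval 2.04 to 3.28, limma, adjusted p = 3.21e-05). With FST288, where HFD livers were already at 5.78 to 5.79 and LTKO livers at 8.03 and 7.22, it was 1.84 ± 0.29 (SE), or 3.59-fold (95% interval 1.22 to 2.46, limma, adjusted p = 0.000732). Both calls held in each of the 22 alternative settings, with differences of 2.28 to 3.03 and of 1.44 to 2.25. In order of its group means, Cdkn1a stood at 4.51 ± 0.52 (SD, n = 3) in HFD GFP, 5.78 ± 0.01 (SD, n = 3) in HFD FST288, 7.17 ± 0.53 (SD, n = 2) in LTKO GFP and 7.63 ± 0.57 (SD, n = 2) in LTKO FST288. HFD FST288 and LTKO GFP did not overlap but were not compared by a test, and the 2 LTKO groups overlapped.

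Gadd45b was at 5.87 and 5.83 in LTKO livers with GFP, against 2.80 to 3.57 in HFD livers. The difference was 2.71 ± 0.19 (SE), or 6.55-fold (95% interval 2.30 to 3.13, limma, adjusted p = 7.93e-07). With FST288 it was 3.02 ± 0.19 (SE), or 8.11-fold (95% interval 2.60 to 3.43, limma, adjusted p = 2.54e-07). Every LTKO liver lay above every HFD liver by at least the gap from 3.88 to 5.83, and both calls held in each of the 22 settings. The HFD GFP values lie around the array medians of named genes (3.10 to 3.17), where array signals approach background, so neither fold is an exact ratio of transcripts. Its group means took the same order as those of Cdkn1a: 3.14 ± 0.40 (SD, n = 3), 3.75 ± 0.17 (SD, n = 3), 5.85 ± 0.03 (SD, n = 2) and 6.77 ± 0.08 (SD, n = 2). The HFD FST288 and LTKO GFP groups were apart, and the neighbours within each background did not pass the test.

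Sesn1 went the other way without passing. It stood at 4.51 and 4.85 with GFP and at 4.38 and 4.93 with FST288 in LTKO livers, all below the HFD arrays, which lay between 5.08 and 5.44. The differences were -0.54 ± 0.18 (SE; limma, adjusted p = 0.0721) with GFP and -0.56 ± 0.18 (SE; adjusted p = 0.0759) with FST288. The GFP difference passed in 5 of 22 settings, among them without LTKO FST288 replicate 1 (adjusted p = 0.0367) or replicate 2 (adjusted p = 0.0373), and the FST288 difference passed in 2 of 22, among them without LTKO FST288 replicate 2, which leaves 1 liver in that group (-0.84, adjusted p = 0.0224, with the spread from the other groups). Btg2 was lower in LTKO livers with GFP by a difference of -0.53 (95% interval -0.97 to -0.09, adjusted p = 0.117), which passed without HFD GFP replicate 1 (-0.70, adjusted p = 0.0461) or, with 1 LTKO GFP liver and the spread from the other groups, without LTKO GFP replicate 2 (-0.85, adjusted p = 0.0296). With FST288 it differed by 0.11 (adjusted p = 0.843).

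Ccng1 and Eda2r did not share the high LTKO levels of Cdkn1a. With GFP, Ccng1 was at 8.08 and 8.06 in LTKO livers, inside the HFD range of 7.85 to 8.64, and differed by -0.08 (adjusted p = 0.885). Eda2r was at 1.97 and 1.96, inside the HFD range of 1.85 to 2.42, and differed by -0.21 (adjusted p = 0.582). With FST288 the differences were -0.45 for Ccng1 (95% interval -0.97 to 0.07, adjusted p = 0.322) and -0.55 for Eda2r (-0.98 to -0.11, adjusted p = 0.122). When LTKO FST288 replicate 1 was left out, the group was the 1 liver of replicate 2 and the spread came from the other groups. Both genes were then called lower, Ccng1 at -0.94 (adjusted p = 0.0143) and Eda2r at -0.88 (adjusted p = 0.0198), so the number of called genes there went from 2 to 4. Mdm2 differed by 0.05 with GFP (95% interval -0.38 to 0.47) and by 0.13 with FST288 (-0.30 to 0.55), and Phlda3 by -0.10 (-0.56 to 0.37) and 0.01 (-0.46 to 0.47).

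**Figure D3:**
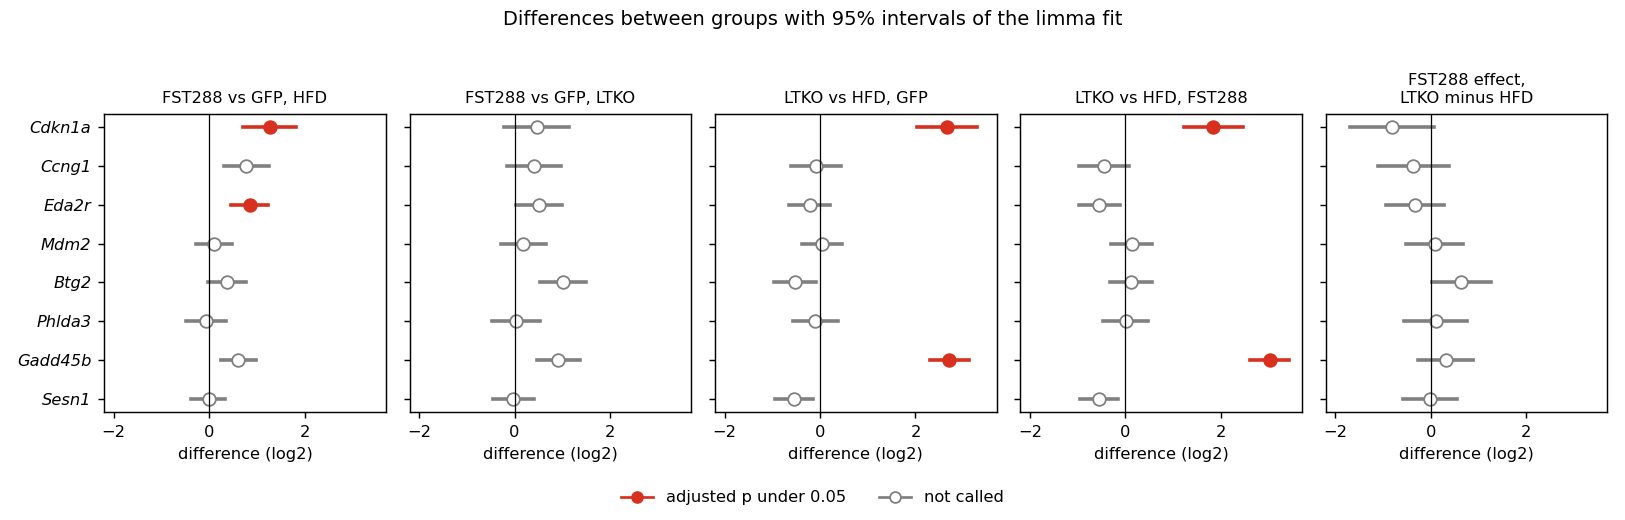
Differences between groups (log2, points) with the 95% intervals of the limma fit (bars) for the 8 genes in 5 comparisons, with red filled points where the adjusted p is under 0.05. Cdkn1a (1.27) and Eda2r (0.85) are called for FST288 in HFD livers, none in LTKO livers or in the interaction, and Cdkn1a (2.66 and 1.84) and Gadd45b (2.71 and 3.02) are called for LTKO against HFD.

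Of a list of 69 other p53 targets, 64 were measured, and 2 of them passed the test of FST288 in HFD livers. 1 was higher and 1 lower (3.12%, against 0.996% of all genes), and the median change was 0.04. Lpin1, a phosphatidate phosphatase and transcriptional coactivator, was at 9.06, 9.26 and 9.28 with GFP and at 10.33, 9.76 and 10.10 with FST288 (difference 0.86, limma, adjusted p = 0.0118). Pltp, the phospholipid transfer protein, was lower (-0.63, adjusted p = 0.0368), with its lowest values, 6.52 and 6.49, on the 2 arrays with high acinar markers and 7.04 on the third FST288 array, against 7.28 to 7.33 with GFP. The part of the acinar signal in it was not tested. In LTKO livers 0 of 64 passed, against 0.167% of all genes, with a median of 0.01. At an unadjusted p under 0.05 by limma there were 11 of the 64 in HFD livers and 14 in LTKO livers. Over all 22180 genes there were 2672 and 2213, the background for the same counts of the lists below. The smallest p-values in LTKO livers belonged to Sesn2 (-0.49, limma, adjusted p = 0.271) and Plk3 (0.64, adjusted p = 0.278).

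Between LTKO and HFD livers, 6 of the 64 were higher and 8 lower with GFP (21.9%, against 13.1% of all genes), and 5 were higher and 5 lower with FST288 (15.6%, against 10.3% of all genes). Lpin1 was lowest in LTKO livers, at 4.63 to 5.35 over the 4 arrays, and its differences were -4.33 with GFP and -4.78 with FST288 (limma, adjusted p = 2.21e-09 and 5.56e-10). Lpin1 is also known to be induced by fasting-responsive factors. Ephx1, the microsomal epoxide hydrolase, rose by 1.48 and 1.26 (adjusted p = 1.64e-06 and 7.44e-06), and Ddit4, an inhibitor of mTORC1, changed by -1.40 and -1.26 (adjusted p = 7e-05 and 0.000194). Sesn2 was higher with GFP (0.83, adjusted p = 0.000867) and did not pass with FST288 (0.27, adjusted p = 0.28). Trim7 was lower with both viruses (-0.86 and -1.69, limma, adjusted p = 0.00607 and 3.43e-05). The medians of the list were 0.08 and 0.01.

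**Figure D4:**
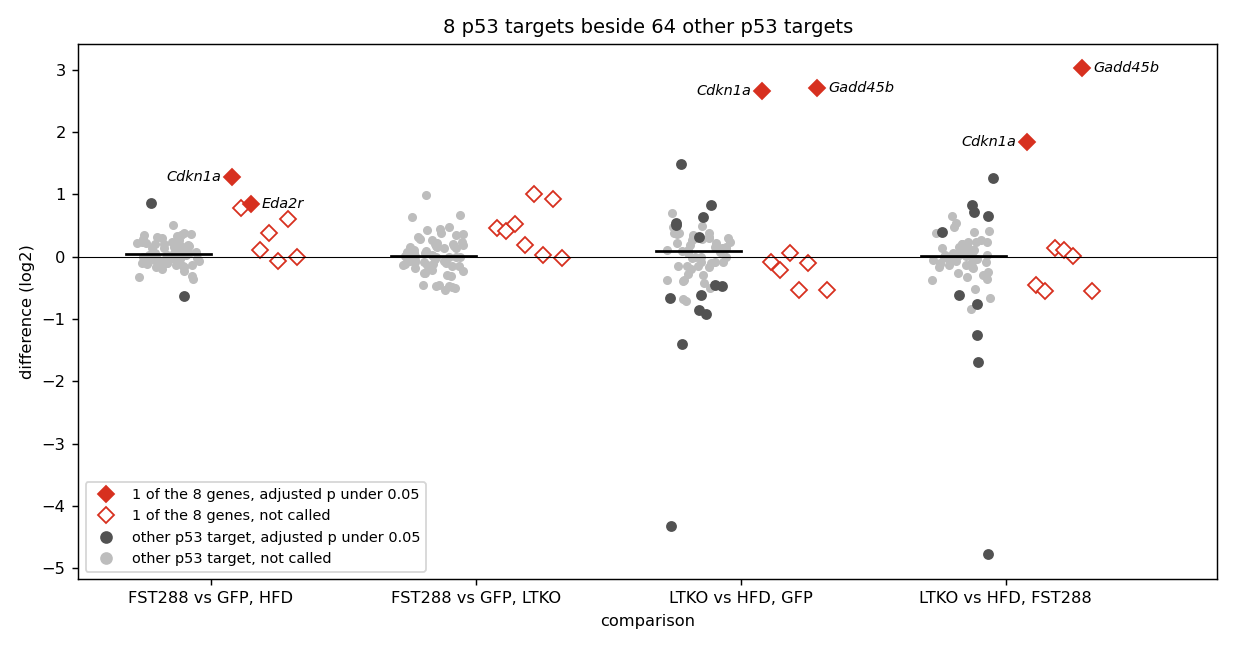
Differences between groups (log2) of the 8 genes (diamonds, filled red where the adjusted p is under 0.05) beside the 64 other measured p53 targets (circles, dark where called) in 4 comparisons, with a bar at the median of the 64. The medians lie between 0.01 and 0.08, Cdkn1a and Gadd45b lie above all other targets in both LTKO comparisons, and Lpin1 lies lowest there (-4.33 and -4.78).

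Of a list of 26 genes, made up of p53, its relatives and its regulators, 24 were measured, and p53 itself was not among them. With FST288, 0 passed in either background (limma, 2 at an unadjusted p under 0.05 in each), where 0.996% and 0.167% of all genes did. In LTKO against HFD livers 2 passed with GFP (8.33%, against 13.1% of all genes) and 1 with FST288 (4.17%, against 10.3%). With GFP, Prkdc, the catalytic subunit of DNA-dependent protein kinase, was lower in LTKO livers (-0.64, limma, adjusted p = 0.0114) and the acetyltransferase Kat5 was higher (0.58, adjusted p = 0.0329). With FST288, Trim24, a ubiquitin ligase of p53, was higher (0.84, adjusted p = 0.00545).

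Among 7 other cyclin-dependent kinase inhibitors measured, none passed with FST288 in either background, where 0.996% and 0.167% of all genes did. At an unadjusted p under 0.05 by limma there were 0 in HFD and 1 in LTKO livers. Their changes in HFD livers ran from -0.27 in Cdkn1c to 0.26 in Cdkn2c. Cdkn2c, an inhibitor of CDK4 and CDK6, was the 1 of 7 that passed between LTKO and HFD livers, where it was higher with FST288 (10.3% of all genes called; 0.73, limma, adjusted p = 0.0198), and with GFP its difference was 0.54 (adjusted p = 0.0731).

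Of 29 relatives of the genes described here, 27 were measured, and 0 passed with FST288 in either background, where 0.996% and 0.167% of all genes did. At an unadjusted p under 0.05 by limma there were 4 in HFD and 6 in LTKO livers. With GFP 4 were higher and 5 lower in LTKO livers (33.3%, against 13.1% of all genes), and with FST288 2 were higher and 4 lower (22.2%, against 10.3% of all genes). Sesn2, Btg1, Bbc3 and Pmaip1 of this list are also among the other p53 targets above. Sesn3, Bcl2l11, Ccng2, Btg1 and Bbc3 are also in the FoxO list below, so the shares of these lists are not independent. Sesn3, the FoxO-driven sestrin, fell by 1.58 and 1.21 on the log2 scale (limma, adjusted p = 7.05e-06 and 8.08e-05). Gadd45g, a close relative of Gadd45b, was at 4.82 and 5.45 in LTKO livers with GFP against 6.16 to 6.42 in HFD livers (-1.17, adjusted p = 0.00314), a difference opposite in sign to that of Gadd45b. With FST288 in LTKO livers it stood at 5.98 and 6.83, a difference of 1.27 from GFP that did not pass (adjusted p = 0.0751). Tob1, an antiproliferative relative of Btg2, was lower with GFP (-0.75, adjusted p = 0.000547), and Tob2 was lower (-0.88, adjusted p = 0.00124) and Btg1 higher (0.83, adjusted p = 0.00417) with FST288.

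Of 40 cell cycle genes that p21 is known to repress through the DREAM complex, 38 were measured. Some were dim: Top2a stood at 1.91 to 2.62 and Bub1b at 1.95 to 2.71, below the array medians of named genes (3.10 to 3.17). A fall in genes so near background may not be resolved on these arrays. With FST288, 0 of 38 passed in HFD livers, against 0.996% of all genes (limma, 2 at an unadjusted p under 0.05, median change -0.04). In LTKO livers 0 of 38 passed, against 0.167% of all genes (limma, 2 at an unadjusted p under 0.05, median 0.04). Between LTKO and HFD livers, where Cdkn1a differed most, 2 were higher and 4 lower with GFP (15.8%, against 13.1% of all genes), and 1 was higher and 1 lower with FST288 (5.26%, against 10.3% of all genes), with medians of -0.05 and 0.04. Rrm2, the regulatory subunit of ribonucleotide reductase, was lower in both (-0.87 and -1.14, limma, adjusted p = 0.0035 and 0.000488), and the replication licensing subunit Mcm7 was higher in both (0.69 and 0.64, adjusted p = 0.00387 and 0.00718).

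Lists of genes set by other factors known to act on Cdkn1a, Gadd45b or Btg2 were counted in the same way. Of 21 genes that FoxO factors are known to induce, with the 8 measured genes left out, Txnip rose with FST288 in HFD livers (1.22, limma, adjusted p = 0.00216). It stood at 6.49 to 7.13 with GFP and at 8.0 to 8.15 with FST288. Txnip was the only call there (4.76%, against 0.996% of all genes). Btg1, Bbc3 and Bcl6 of this list are also among the 64 other p53 targets above. None passed in LTKO livers, against 0.167% of all genes. There 8 were at an unadjusted p under 0.05 by limma, as were 2213 of all 22180 genes. In LTKO against HFD livers 3 were higher and 7 lower with GFP (47.6%, against 13.1% of all genes), and 4 were higher and 7 lower with FST288 (52.4%, against 10.3%). Pdk4, the pyruvate dehydrogenase kinase of fasting, was higher (3.67 and 4.22, adjusted p = 6.48e-09 and 1.24e-09). Foxo1 and Irs2 are members of this list and were among the lower genes in both comparisons (Foxo1 -1.68 and -2.09, Irs2 -1.21 and -1.41). LTKO, as read above, removes both genes, so their calls are set by the genotype and raise these shares.

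Of 11 other glucocorticoid-induced genes, Zbtb16 rose with FST288 in HFD livers (1.45, limma, adjusted p = 0.00144). It was the only call there (9.09%, against 0.996% of all genes). In LTKO livers none passed, against 0.167% of all genes. There 5 were at an unadjusted p under 0.05 by limma, as were 2213 of all 22180 genes. In LTKO against HFD livers 3 were higher and 4 lower with GFP (63.6%, against 13.1% of all genes), and 4 were higher and 4 lower with FST288 (72.7%, against 10.3%). The metallothionein Mt2 was higher in both (1.83 and 2.01, adjusted p = 4.67e-05 and 2.2e-05), and the clock gene Per1 was lower in both (-2.09 and -1.03, limma, adjusted p = 2.78e-06 and 0.00121).

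SMADs are the effectors of the ligands that follistatin binds. Of 13 other SMAD targets, none passed with FST288 in either background, where 0.996% and 0.167% of all genes did. At an unadjusted p under 0.05 by limma there were 3 in HFD and 1 in LTKO livers. Skil, a SMAD feedback repressor, was at 4.67, 4.17 and 4.81 with GFP and at 3.93, 3.89 and 3.71 with FST288 in HFD livers, without overlap (-0.70, limma, adjusted p = 0.162). With GFP 6 of 13 were higher in LTKO than in HFD livers and 0 lower (46.2%, against 13.1% of all genes, median 0.31), led by Id3 (1.24, adjusted p = 0.00181), and with FST288 3 were higher and 0 lower (23.1%, against 10.3% of all genes, median 0.32).

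Of 22 other immediate early genes, none passed with FST288 in either background, where 0.996% and 0.167% of all genes did. At an unadjusted p under 0.05 by limma there were 2 in HFD and 6 in LTKO livers. Egr1 came nearest in LTKO livers, at 3.99 and 4.27 with GFP and at 5.29 and 4.98 with FST288 (1.00, limma, adjusted p = 0.0519). In LTKO against HFD livers 1 was lower with GFP (4.55%, against 13.1% of all genes), Dusp1 (-0.71, adjusted p = 0.0428), and with FST288 4 were higher and 1 lower (22.7%, against 10.3%), led by Egr1 (0.94, adjusted p = 0.00189) and Jun (0.66, adjusted p = 0.0172).

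Over the 10 arrays, the 5 named genes whose levels were most like those of Cdkn1a were Tspan31 (Pearson r = 0.97), Liph (0.97), Fitm2 (0.96), Leap2 (0.96) and Retsat (0.96). These r values describe a pattern over 4 groups, since most of the variation lies between the groups, and no p is given. Retsat, the retinol saturase, had group means of 8.36, 9.25, 10.56 and 10.64 from HFD GFP to LTKO FST288, the same order as Cdkn1a. Fitm2, which partitions fat into lipid droplets, had means of 6.10, 6.49, 7.0 and 7.10. Liph stayed between 1.67 and 2.05 on all arrays, below the array medians, so its likeness rests on a change of small size. Of the other p53 targets described here, Gadd45b had an r of 0.94 with Cdkn1a, Mdm2 0.48, Ccng1 0.18, Btg2 0.13, Eda2r 0.04, Phlda3 -0.03 and Sesn1 -0.79.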

How the data were processed

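Liver RNA of 10 samples was hybridised to Affymetrix whole-transcript arrays, 1 array each. Per the submitters' processing notes, the authors used Affymetrix Expression Console with RMA, and the deposited values, from 0.64 to 13.21, are read as log2. The program's version is not given in the sources used here. Of 41345 transcript clusters, 23521 had 1 symbol, 1814 several and 16010 none listed, and for 1082 genes with several clusters the brightest by mean was used. In R 4.3.3, limma 3.58.1 fitted 1 mean per group to all 10 arrays (6 residual and 7.15 prior degrees of freedom, intensity trend), with Benjamini-Hochberg adjustment over 22180 genes and calls at 0.05, for 5 comparisons. The fit was tested on simulated data. Arrays give no counts, so their number limits the precision. For 3 against 3 livers an exact permutation test cannot go below p = 0.1.

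The 10 genes and the gene lists were chosen with earlier results of these data known. Named were these 10, up to 4 called genes of each list per comparison (otherwise up to 2 with the smallest p), genes that check the labels, and the 5 most like Cdkn1a. Promoters came from RefSeq (GRCm38.p6), which matched all 10 symbols. 12 alternatives beside leaving out each array were planned, and 2 on acinar markers were added after seeing the data. Shared replicate numbers do not mark shared animals in the labels, so no block was used.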

Additional observations from a re-analysis of the deposited data

How the results depend on the processing

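Of 862 alternative values of the 8 genes' differences, 785 kept their direction and side of the threshold, 23 lost a call, 16 gained one, 0 reversed a called difference, and 38 changed the sign of an uncalled one. Of the 8 genes, 2 were called for FST288 in HFD livers. That count was 0 to 3 when arrays were left out 1 at a time. It was 1 with a replicate block (Eda2r, while Cdkn1a had 1.27, limma, adjusted p = 0.058), 1 with robust moderation (Eda2r) and 1 among genes with a mean above 4, where Eda2r was filtered out. It was 0 when all clusters were tested, without the intensity trend, at an adjusted p under 0.01, with the acinar covariate and without the 2 acinar-high arrays, which leaves 1 HFD FST288 liver. These last 2 settings called 41 and 6 genes in all, against 221. The count of 2 for LTKO against HFD livers with FST288 was 2 to 4 when arrays were left out. With GFP, LTKO against HFD gave 2 or 3, and the LTKO effect of FST288 and the interaction gave 0 throughout. With a replicate block, the only other call to change was Sesn1 in LTKO against HFD livers with GFP (-0.54, adjusted p = 0.0491). Deviations of same-numbered arrays correlated at -0.07 to 0.01. In the LTKO groups of 2 the deviations are equal and opposite, and the HFD groups are small, so these values cannot settle whether arrays were paired. The causes of lost calls were not tested, except that leaving arrays out leaves fewer samples. Where 1 liver is left in a group, it is assumed to vary like the other groups. Dim genes such as Eda2r, and groups of 2, limit what can be resolved.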
